A study of Mus musculus with 15 samples.

Results

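The Slc22 genes encode carriers that move organic anions, organic cations, carnitine and urate across the plasma membrane. Values are given here for 9 of them, chosen by name, out of 46517 genes listed in the count files: Slc22a2, Slc22a4, Slc22a5, Slc22a6, Slc22a7, Slc22a8, Slc22a12, Slc22a13 and Slc22a18. All 9 were counted in the RNA libraries, and all 9 passed the filter on low counts. Methylation positions were taken from the bounds of each gene and 2 kb on both sides, on build GRCm38.

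The study deleted Dnmt1, the enzyme that copies CpG methylation onto newly replicated DNA, in the lineage of nephron progenitors. All samples were kidney of C57BL/6 mice. The controls were newborns (P0) with floxed Dnmt1 alleles and no Cre (Dnmt1 f/f), and the knockouts (KO) were newborns that also carried Six2Cre (Six2Cre Dnmt1 f/f). RNA was sequenced from 3 controls and 3 KO samples. Reduced representation bisulfite sequencing (RRBS), which reads cytosine methylation in CpG-rich fragments, covered 3 controls, 3 KO samples and 3 wild-type adults of 6 weeks. Both newborn groups carried the floxed alleles, and the adults did not. Six2 drives Cre in nephron progenitors, so their descendants are the cells in which the alleles recombine, while stroma, vessels and the ureteric tree keep Dnmt1. The source label names Six2-positive kidney cells, whereas the protocol in the same labels names the whole organ as the source of DNA. Nothing in the labels says that replicates came from separate animals, so the p-values measure the spread between these samples, which may be technical.

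In the proximal tubule, Slc22a6 and Slc22a8 (Oat1 and Oat3) take up organic anions, many of them drugs and toxins, from the blood in exchange for dicarboxylates, and Slc22a2 (Oct2) takes up organic cations. On the luminal side Slc22a12 (Urat1) reabsorbs urate and Slc22a5 (Octn2) reabsorbs carnitine. Most of these genes are switched on late in nephron development, as tubules mature, and the transcription factor Hnf4a is a known activator of several of them.

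Total gene counts ran from 26773937 to 34102567 per RNA library, and RRBS libraries held between 18424875 calls (KO 3) and 88765177 calls. Dnmt1 itself, the targeted gene, stood at 156 to 188 CPM (counts scaled to library size) in controls and 93.7 to 111 CPM in KO, lower by edgeR (adjusted p 0.00577) and not absent. Six2 and the other nephron progenitor markers were counted beside markers of tubule, podocyte, stroma and endothelium: Col3a1, a stromal collagen, averaged 1823 CPM in controls and Six2 averaged 82.2 CPM. Control 3 stood apart from the other 2 controls in the genes described here. Its level over the mean of controls 1 and 2 had a median log2 ratio of 1.52 over the 9 Slc22 genes and 1.26 over 12 proximal tubule markers, against 0.00 over all 18132 genes tested. The same ratio was -0.54 over 6 ureteric and collecting duct markers. Fold changes of the 9 genes and the counts of each gene list are therefore given with and without that library. The refit of the gene lists without it was added after the data were seen.

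Promoter sequence was available for 8 of the 9 genes from RefSeq (GRCm38.p6), and Slc22a7 is named only. They differed widely in CpG content. Over the 300 bases around the annotated start, Slc22a5 held 34 CG dinucleotides and Slc22a4 held 29, while Slc22a2 held 8, Slc22a12 held 6, Slc22a6 and Slc22a18 held 2 each, Slc22a8 held 1 and Slc22a13 held 0. The median over 27025 promoters of this length was 7. The 4 sequences below are shown because they set a pair rich in CG beside a pair poor in it, each pair of like function. The rich pair is the nearby carnitine and zwitterion carriers Slc22a5 (chr11:53891654-53891953, minus strand) and Slc22a4 (chr11:54028055-54028354, minus strand). The poor pair is the neighbouring organic anion carriers Slc22a6 (chr19:8617746-8618045, plus strand) and Slc22a8 (chr19:8592932-8593231, plus strand). Each runs 5′ to 3′ on the strand of its gene. Capitals mark CG dinucleotides.

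Slc22a5: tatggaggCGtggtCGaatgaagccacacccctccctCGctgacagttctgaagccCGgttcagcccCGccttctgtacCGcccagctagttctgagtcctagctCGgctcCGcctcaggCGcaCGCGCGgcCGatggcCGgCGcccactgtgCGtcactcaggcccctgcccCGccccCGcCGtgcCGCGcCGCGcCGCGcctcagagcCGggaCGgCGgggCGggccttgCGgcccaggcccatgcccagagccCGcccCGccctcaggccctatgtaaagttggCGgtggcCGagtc
Slc22a4: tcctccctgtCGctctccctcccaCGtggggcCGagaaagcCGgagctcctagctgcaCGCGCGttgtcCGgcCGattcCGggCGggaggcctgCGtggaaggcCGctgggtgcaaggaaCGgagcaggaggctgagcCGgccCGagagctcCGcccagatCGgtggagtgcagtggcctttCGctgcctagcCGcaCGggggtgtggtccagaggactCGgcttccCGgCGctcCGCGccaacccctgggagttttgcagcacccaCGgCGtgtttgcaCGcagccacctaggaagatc
Slc22a6: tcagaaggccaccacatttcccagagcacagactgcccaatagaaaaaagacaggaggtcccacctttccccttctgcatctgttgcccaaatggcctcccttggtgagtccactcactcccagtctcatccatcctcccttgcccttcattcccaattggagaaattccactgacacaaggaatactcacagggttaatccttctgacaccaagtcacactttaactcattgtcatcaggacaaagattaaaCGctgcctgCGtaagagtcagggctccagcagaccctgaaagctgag
Slc22a8: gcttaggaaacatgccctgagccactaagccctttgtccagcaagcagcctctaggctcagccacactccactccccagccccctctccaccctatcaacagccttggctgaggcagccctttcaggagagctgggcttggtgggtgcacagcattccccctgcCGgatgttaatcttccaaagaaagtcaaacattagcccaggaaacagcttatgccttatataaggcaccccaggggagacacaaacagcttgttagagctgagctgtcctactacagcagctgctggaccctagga

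RRBS reads reached these windows unevenly. The CpG-rich pair was almost free of methylation in every group: pooled over replicates, the Slc22a5 window was methylated at 0.617% of 1783 control calls, 1.02% of 880 KO calls and 0.0951% of 2103 adult calls, and the Slc22a4 window at 0.841% of 1427, 0.931% of 967 and 0.183% of 1636. The Slc22a2 window, read at 4 positions, was methylated at 23.6% of 55 control calls, 10.7% of 28 KO calls and 19.3% of 114 adult calls. The Slc22a8 window, with its single CG, was methylated at 4 of 9 control calls (44.4%), 1 of 7 KO calls (14.3%) and 6 of 35 adult calls (17.1%). The Slc22a6 window had 0 calls in controls and adults and 10 in KO, of which 0 were methylated. These pooled values carry no test, and at this depth KO and control could not be compared at the Slc22a6 and Slc22a8 starts.

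The first comparison asked how the Slc22 transcripts differed between KO and control kidneys at birth. In KO, 7 of the 9 were lower and 0 were higher by edgeR's quasi-likelihood test (Benjamini-Hochberg adjusted p under 0.05 over all 18132 genes tested), where 8.23% of all genes tested were lower and 6.36% were higher. In all 9, every KO sample lay below every control, a separation found in 17.8% of genes tested. The median log2 fold change was -3.15 over the members and -0.00 over all genes tested. Without control 3, 8 of the 9 were lower and 0 higher, with a median of -2.26, where 13.8% of all 18533 genes tested were lower and 13.6% higher, with a median of 0.01. Summed over the 9, control libraries held 352, 306 and 980.5 CPM and KO libraries 75.1, 86.4 and 87.6 CPM. In bulk samples, fewer cells of a type and less RNA per cell cannot be told apart.

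**Figure D1:**
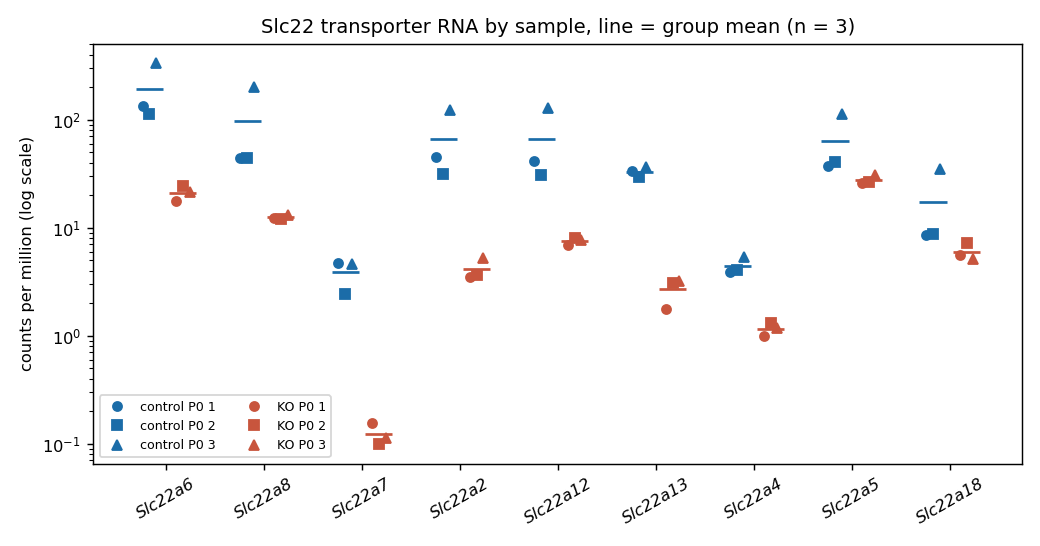
RNA level of the 9 Slc22 genes in CPM (log axis), with 1 point per library (blue, controls; red, KO) and a line at each group mean (n = 3). Every KO point lies below every control point of the same gene, the gap is narrowest for Slc22a5 and Slc22a18, and control 3 is the highest control in all but Slc22a7.

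Among the organic anion carriers, Slc22a6, on chromosome 19 (8617996 to 8628299), stood at 133, 114 and 334 CPM in controls 1 to 3 and at 17.5, 24.4 and 21.4 CPM in KO 1 to 3. The KO libraries were close to each other and the lowest control was 4.67 times the highest KO. The means were 194 ± 122 and 21.1 ± 3.43 CPM (SD, n = 3 each), a log2 fold change of -3.20 (SE 0.41, edgeR adjusted p 0.00173). Without control 3 it was -2.55.

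Slc22a8, its neighbour (8591254 to 8611835), measured 44.5, 44.6 and 202 CPM in controls and 12.4, 12.03 and 13.2 CPM in KO. Control 3 was 4.54 times the mean of the other 2 controls, the widest such gap among the 9 genes. The means of 97.2 ± 91.1 and 12.6 ± 0.611 CPM gave a log2 fold change of -2.95 (SE 0.59, edgeR adjusted p 0.0125), which became -1.83 without control 3. Leaving out KO 1, KO 2 or KO 3 kept the size of the change, at -2.94, -2.94 and -2.99, and moved the edgeR adjusted p to 0.0614, 0.0534 and 0.0543.

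Slc22a7 (Oat2), an anion carrier of tubule and liver, lies on chromosome 17 (46432185 to 46438477). Its raw counts were 153, 75 and 169 in controls and 5, 3 and 3 in KO. In CPM this was 4.66, 2.43 and 4.59 against 0.156, 0.0984 and 0.114. No KO library came near a control, and control 3 did not stand apart here. KO libraries kept 3.13% of the control level for their depth (95% exact interval 1.55% to 5.67%, from 11 against 397 counts, covering counting error only). The log2 fold change of -4.94 (SE 0.43, edgeR adjusted p 0.000346) ranked 12th among the falls of all genes tested, and was -4.80 without control 3.

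The organic cation carrier Slc22a2, on chromosome 17 (12584189 to 12628489), was measured at 44.7, 31.6 and 122 CPM in controls and 3.46, 3.67 and 5.28 CPM in KO. All 3 KO libraries were far under the lowest control, by a factor of 5.99 at the closest. The means were 66.1 ± 48.8 and 4.14 ± 0.997 CPM, a log2 fold change of -4.00 (SE 0.52, edgeR adjusted p 0.00180), and -3.21 without control 3.

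The urate reabsorber Slc22a12, on chromosome 19 (6535854 to 6543070), stood at 41.6, 30.7 and 128 CPM in controls and 6.95, 8.03 and 7.68 CPM in KO. Its control 3 was again the high library, and the groups did not overlap. The means of 66.9 ± 53.5 and 7.55 ± 0.552 CPM gave a log2 fold change of -3.15 (SE 0.51, edgeR adjusted p 0.00493), and -2.26 without control 3. Slc22a13 (Oat10), a luminal carrier of nicotinate and urate on chromosome 9 (119192966 to 119209105), behaved more evenly. Its controls were 33.2, 29.4 and 36.3 CPM and its KO libraries 1.78, 3.08 and 3.19 CPM. Control 3 was only 1.16 times the mean of controls 1 and 2, and the lowest control was 9.21 times the highest KO. With means of 33.0 ± 3.48 and 2.68 ± 0.788 CPM, its log2 fold change came to -3.62 (SE 0.25, edgeR adjusted p 0.000114), the smallest adjusted p of the 9, and -3.55 without control 3.

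The 2 members that carry carnitine and related zwitterions lie near each other on chromosome 11. Slc22a4 (Octn1, 53983115 to 54030040), which transports ergothioneine, was at 3.87, 4.08 and 5.41 CPM in controls and 0.997, 1.31 and 1.18 CPM in KO. The groups were separate and tight within themselves. Its means of 4.45 ± 0.835 and 1.16 ± 0.158 CPM gave a log2 fold change of -1.94 (SE 0.27, edgeR adjusted p 0.00259), and -1.77 without control 3. Slc22a5 (53864542 to 53891796), the high-affinity carnitine carrier that many cell types use, was at 37.3, 40.2 and 113 CPM in controls and 26.2, 26.6 and 30.4 CPM in KO. Controls 1 and 2 lay only a little above the KO libraries, and the lowest control was 1.22 times the highest KO. The means were 63.4 ± 42.7 and 27.7 ± 2.35 CPM, a log2 fold change of -1.19 (SE 0.40) that did not pass (edgeR adjusted p 0.0848). Without control 3 the difference was smaller, -0.48, and passed (edgeR adjusted p 0.0129). KO kept 43.8% of the mean of all controls and 71.6% of the mean of controls 1 and 2.

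Slc22a18, a more distant relative in an imprinted cluster of chromosome 7 (143473726 to 143499334), was at 8.62, 8.74 and 34.6 CPM in controls and 5.61, 7.21 and 5.13 CPM in KO. Control 3 was 3.99 times the mean of the other controls. The means of 17.3 ± 14.97 and 5.98 ± 1.09 CPM gave a log2 fold change of -1.53 (SE 0.53) that did not pass (edgeR adjusted p 0.0973), and -0.54 without control 3. DESeq2 placed Slc22a5 and Slc22a18 past the threshold (adjusted p 0.0105 and 0.00887), as did edgeR with no filter on low counts (0.0176 and 0.0251).

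Markers of the proximal tubule, where most of these carriers act, fell in the same libraries. Of 12 markers, 11 were lower and 0 higher, with a median log2 fold change of -2.89, and their summed level was 2623 to 6245 CPM in controls and 533 to 664 CPM in KO. Without control 3 all 12 were lower, with a median of -2.23. Aqp1, the water channel, Slc3a1, a subunit of the cystine transporter, and Lrp2, the endocytic receptor megalin, had the smallest p among them, at log2 fold changes of -2.27, -2.69 and -2.22. The log2 level of each Slc22 gene was therefore also set against the mean log2 level of these 12 markers in the same library, a comparison added after the data were seen. The part of tubule content in the result was not tested beyond these values.

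Set against the markers, the 9 genes parted in both directions. The marker mean itself fell: no control library was under 6.61 log2 CPM, and no KO library was over 4.83. A gene that did not change, or that fell less than the markers, therefore stands higher in KO on this scale. Higher here does not mean a rise in RNA. The share of all genes whose groups separate on this scale is not given here. Slc22a7 stood lower in KO by -1.82 on the log2 scale, Slc22a2 by -1.22 and Slc22a6 by -0.50, each with every KO library below every control. For Slc22a7, with KO counts of 5, 3 and 3, the prior count of 2 makes the differences on this scale smaller. Slc22a5 stood higher by 1.54, Slc22a18 by 1.33 and Slc22a4 by 0.66, each with every KO library above every control. Each of these 6 had a two-sided exact permutation p of 0.1, the smallest that 3 against 3 allows, so none could pass 0.05. The groups overlapped for Slc22a8 at -0.01, Slc22a12 at -0.31 and Slc22a13 at -1.09 (exact permutation p of 1, 0.2 and 0.2). For Slc22a13, control 3 was at -3.03 and controls 1 and 2 at -1.69 and -1.73, and control 3 alone overlapped the KO libraries. Without control 3 the differences were -2.19 for Slc22a7, -1.53 for Slc22a13, -1.16 for Slc22a2, -0.53 for Slc22a6, 1.54 for Slc22a5, 1.48 for Slc22a18, 0.30 for Slc22a4 and 0.20 for Slc22a8, each with the groups separate, and -0.21 with overlap for Slc22a12. The sign for Slc22a8 thus turned with that library.

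**Figure D2:**
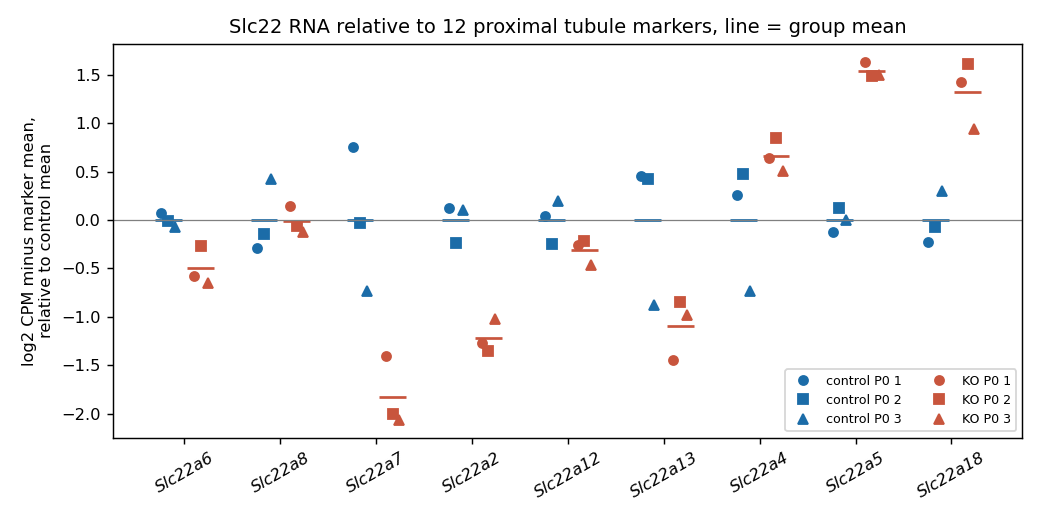
Log2 CPM of each Slc22 gene minus the mean log2 CPM of 12 proximal tubule markers in the same library, drawn relative to the control mean (line at 0), with 1 point per library (blue, controls; red, KO) and a line at each group mean (n = 3). Slc22a7 and Slc22a2 lie under their controls, Slc22a5, Slc22a18 and Slc22a4 above them, and Slc22a8, Slc22a12 and Slc22a13 overlap. The markers fell in KO, so a gene that fell less than they did lies above its controls.

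The rest of the family followed the same direction with exceptions. Of 16 other Slc22 genes, 14 were tested, 8 were lower and 0 higher, with a median log2 fold change of -2.01. Without control 3 this was 9 lower and 0 higher, with a median of -1.60. The 3 with the smallest p were Slc22a19 at -2.89 (SE 0.18, edgeR adjusted p 8.87e-05), Slc22a27 at -3.36 (SE 0.34, 0.000613) and Slc22a22, a prostaglandin-specific anion carrier, at -3.42 (SE 0.36, 0.000766). Slc22a19 and Slc22a26 to Slc22a30 are close copies of each other, so reads may be split or lost among them and their single values are uncertain. The 6 that did not pass were Slc22a3 at 0.27, Slc22a15 at 0.01, Slc22a21 at -0.00, Slc22a17 at -0.24, Slc22a23 at -0.65 and Slc22a26 at -1.04. These 6 genes lie outside the naming rule and were picked after their values were seen. Of them Slc22a26 passed without control 3 (-1.36, edgeR adjusted p 0.00797).

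Transporters that work with the Slc22 carriers in organic ion, dicarboxylate and urate handling were lower as well. Of 17, 16 were tested, 13 were lower and 0 higher, with a median log2 fold change of -2.38 (-1.70 without control 3, with the same counts). Slco1a6, an organic anion transporter, Slc5a8, a monocarboxylate and lactate cotransporter, and Slc17a3, a phosphate-linked urate exporter, had the smallest p, with log2 fold changes of -2.66, -3.60 and -2.84. The 3 that did not pass were Slco4c1 at 0.58, Abcc4 at -0.11 and Slc16a9 at -0.66, named after their values were seen. Of 7 regulators of proximal tubule genes, 4 were lower and 0 higher, with a median of -1.23, and without control 3 these were 5 and 0, with a median of -0.76. Hnf4a, which activates many transporter genes, fell from 175 to 49.9 CPM (log2 fold change -1.81, SE 0.27, edgeR adjusted p 0.00353; -1.46 without control 3), and Nr1h4, the bile acid receptor, was at -1.75 (-1.48 without control 3).

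Markers of other kidney cells did not move as a block with the carriers. All 6 podocyte markers were lower (median -2.25), as were 4 of 5 thick limb and distal markers, with 1 higher (median -3.53), and 4 of 5 endothelial markers (median -0.75). Of 7 nephron progenitor markers 2 were lower and 2 higher (median 0.20), of 6 ureteric and collecting duct markers 0 were lower and 1 higher (median 0.13), of 6 stromal markers 0 were lower and 3 higher (median 0.28) and of 5 leukocyte markers 0 were lower and 1 higher (median 0.51). Of 4 hepatocyte markers tested, 1 was lower, and of 2 adrenal markers tested, 0 changed. Without control 3 the medians were -2.08 for podocyte, -3.05 for thick limb and distal, -0.90 for endothelial, 0.20 for ureteric, 0.29 for stromal and 0.52 for leukocyte markers, and the nephron progenitor median turned to -0.12. The counts moved to 5 of 5 endothelial markers lower, 3 nephron progenitor markers lower and 3 higher, 2 ureteric markers lower and 2 higher, and 2 leukocyte and 1 adrenal markers higher. The summed stromal level was 3082 to 3678 CPM in controls and 2997 to 3533 CPM in KO. The part of these markers in the result for the carriers was not tested.

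**Figure D3:**
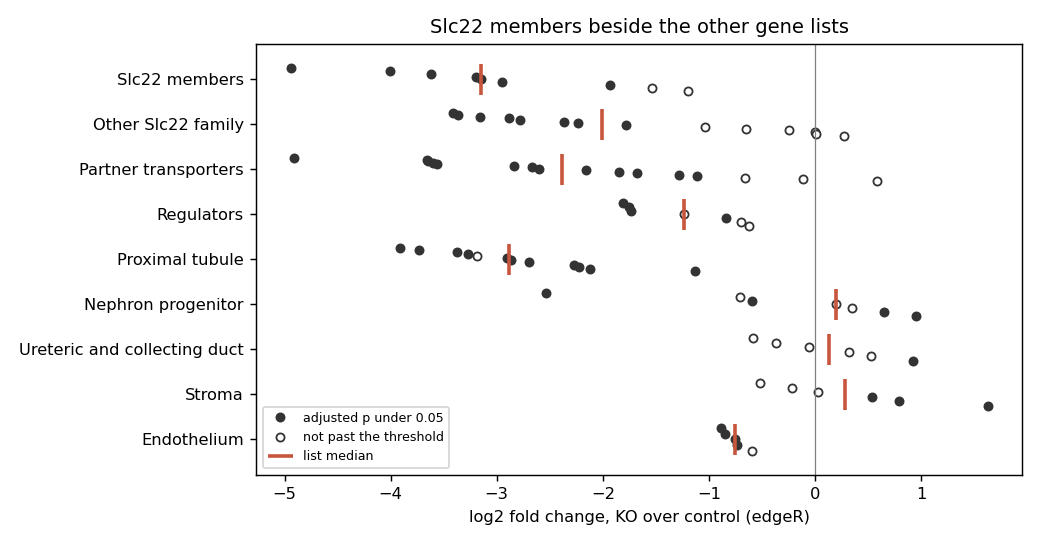
Log2 fold change of KO over control from edgeR for the 9 Slc22 genes and for 8 of the other gene lists, with 1 point per gene tested (filled, adjusted p under 0.05; open, not past it) and a red bar at the list median. The 9 Slc22 genes and the proximal tubule markers cover a similar range, from -4.94 to -1.19 and from -3.91 to -1.13. Not drawn are the podocyte (median -2.25), thick limb and distal (median -3.53), leukocyte, hepatocyte and adrenal markers.

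For the 3 carriers of highest mean CPM among those that passed, the genes with the most similar pattern over the 6 RNA libraries were sought among 13242 expressed genes. Slc18a1, a vesicular amine transporter, Etfdh, a mitochondrial electron carrier, and Acsm5, an acyl-CoA synthetase, were most like Slc22a6 (lowest Pearson r of the trio 0.999). Slc4a4, the basolateral bicarbonate cotransporter, Alpl, alkaline phosphatase, and Slc13a3, the dicarboxylate carrier, were most like Slc22a8 (lowest 0.999). Pcx, pyruvate carboxylase, Tcn2, the cobalamin carrier, and Retsat, a retinol saturase, were most like Slc22a12 (lowest 0.998). These are descriptions over 6 libraries that share the same split into controls and KO and the same high control 3.

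The second comparison asked how methylation in and around the carriers differed between KO and control. Where each of the 6 newborn libraries had 10 calls or more, 45 positions lay in the gene regions of 7 members: 17 in Slc22a4, 11 in Slc22a2, 10 in Slc22a7, 3 in Slc22a12, 2 in Slc22a18 and 1 each in Slc22a6 and Slc22a8. Slc22a5 and Slc22a13 had 0. Of the 45, 10 (22.2%) were lower in KO and 0 were higher (quasi-binomial model, adjusted p under 0.05, means at least 10 points apart), where 35.6% of all 380162 positions tested were lower and 0.146% higher. All 10 lay among the 28 positions with a control mean of at least 50%, of which 27 had a lower mean in KO. Methylated gene regions of the whole series fell too. Their median differences were -13.1, -18.5 and -23.5 points at control levels of 40% to 60%, 60% to 80% and 80% to 100%. The share of all positions of like control level was not counted. Among the 17 positions with a control mean under 50%, 0 were called. Of these, 10 had a control mean of 0%. A fall of at least 10 points cannot occur where the control mean is under 10%, so those positions could not be called lower.

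Slc22a2 held 7 of the 10, all inside the gene between 12370 and 13212 bases after its start. At its position of largest difference, 12596586, the controls measured 95.5%, 98.5% and 97.4%, KO 66.7%, 58.1% and 60%, and adults 88.5%, 88.1% and 89.3%. KO was low in every library and adults lay between the 2 newborn groups, nearer the controls. The means were 97.1% ± 1.53 and 61.6% ± 4.48 (SD, n = 3 each, on 18 to 66 calls per newborn library), a difference of -35.5 points (adjusted p 0.00121). Positions this close together can share reads and are not independent. At the position closest to the start among those with enough calls, 179 bases after it, methylation was 85.7%, 80% and 69.2% in controls, 60%, 69.2% and 46.2% in KO and 33.3%, 63.2% and 28.0% in adults. There KO and control overlapped at 69.2% and neither difference passed, at -19.9 points for KO (adjusted p 0.326) and -36.8 points for adults (adjusted p 0.126).

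**Figure D4:**
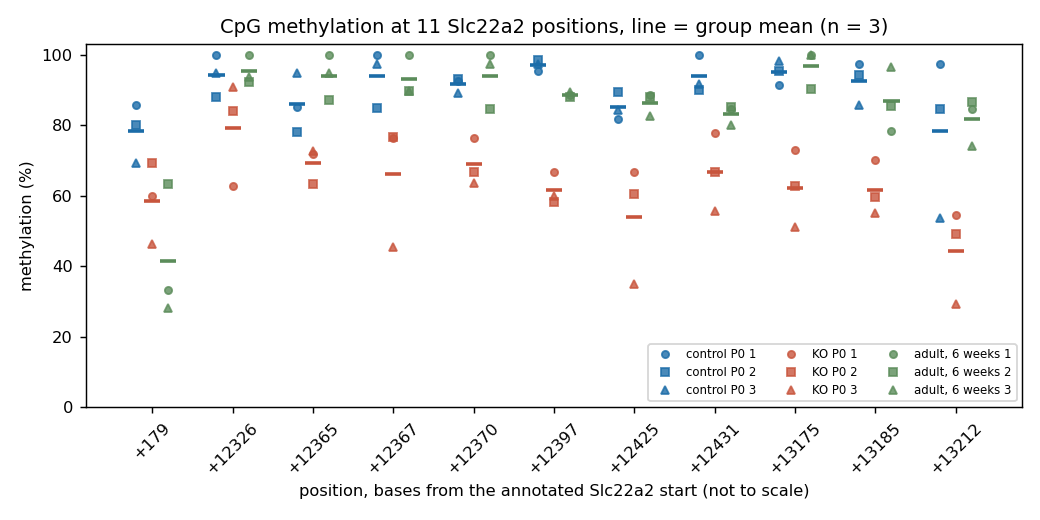
Methylation percent at the 11 measured CpG positions of Slc22a2, ordered by distance from the annotated start (not to scale), with 1 point per library (blue, controls; red, KO; green, adults) and a line at each group mean (n = 3). Controls and adults run between 80% and 100% at most positions, KO means lie under the control means at all 11, and only at +179 is the adult mean, 41.5%, the lowest.

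The other 3 called positions were single ones. In Slc22a8, at 8608682, controls were 83.7%, 84.5% and 86.9% and KO 59.2%, 58.5% and 48.4%, a difference of -29.7 points (adjusted p 0.00368), with adults at a mean of 81.9%. In Slc22a6, at 8620877, which is 2881 bases after its start, controls were 91.7%, 94.1% and 94.6% and KO 80.2%, 62.1% and 57.1%, a difference of -27.0 points (adjusted p 0.00349). Both sets of values were separate between KO and control. In Slc22a7, at 46434623, controls were 83.3%, 67.5% and 60% and KO 57.6%, 38.1% and 5.6%, a difference of -36.5 points (adjusted p 0.0291). KO 3 was the extreme there, on 18 calls.

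Averaged over gene regions with at least 3 positions of at least 10 calls in all 9 libraries, 4 members could be measured. In KO 3 of the 4 were lower and 0 higher (limma, adjusted p under 0.05), where 69.4% of all 14902 gene regions were lower and 0.174% higher, so the share was near the background. Slc22a2 was at 93.3%, 88.7% and 86.9% in controls and 68.7%, 65.2% and 55.0% in KO, with means of 89.7% ± 3.31 and 63.0% ± 7.14. Its difference of -26.7 points (SE 3.41, limma adjusted p 0.000315) compared with a median of -23.5 points over the 2025 regions whose control level was 80% to 100%.

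Slc22a7 was at 46.1%, 49.6% and 50.4% in controls and 39.9%, 32.9% and 37.4% in KO, which differ by -11.95 points in the mean (SE 2.34, limma adjusted p 0.00247), beside a median of -13.1 points over regions of 40% to 60%. Slc22a4 was at 19.5%, 23.2% and 23.8% against 18.5%, 18.2% and 16.0%, a difference of -4.62 points (SE 1.48, limma adjusted p 0.0237), beside -0.847 and -7.77 points over regions of 0% to 20% and 20% to 40%. The groups did not overlap in these 2 genes, but the Slc22a4 call was lost without control 2 (-4.10 points), control 3 (-3.79) or KO 3 (-3.85), with adjusted p of 0.0770, 0.0800 and 0.0677. Slc22a12 was at 70.9%, 76.1% and 71.8% against 65.6%, 51.1% and 74.5%, and KO 3 lay within the controls. Its difference of -9.20 points (SE 5.17) did not pass (limma adjusted p 0.150) and was -14.6 points without KO 3 (adjusted p 0.0152).

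Lowering the minimum to 5 calls brought 7 members into view, of which 5 were lower in KO and 0 higher, where 71.2% of all 16658 gene regions were lower and 0.072% higher, again a share near the background. The added ones were Slc22a8, which went from 70.8% ± 11.1 in controls to 50.1% ± 10.8 in KO (-20.7 points, limma adjusted p 0.0305), and Slc22a18, which went from 50.2% ± 3.92 to 43.8% ± 2.35 (-6.46 points, adjusted p 0.0205). Slc22a5 was at 0.498% and 0.309% over 19 positions, with the smallest room to fall. Slc22a13 had no position called in all 9 libraries. Pooling whatever calls each library had there gave 80.8%, 62.7% and 75% in controls and 42.7%, 55.9% and 32.0% in KO, on 12 to 75 calls per library at positions that differ between libraries.

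**Figure D5:**
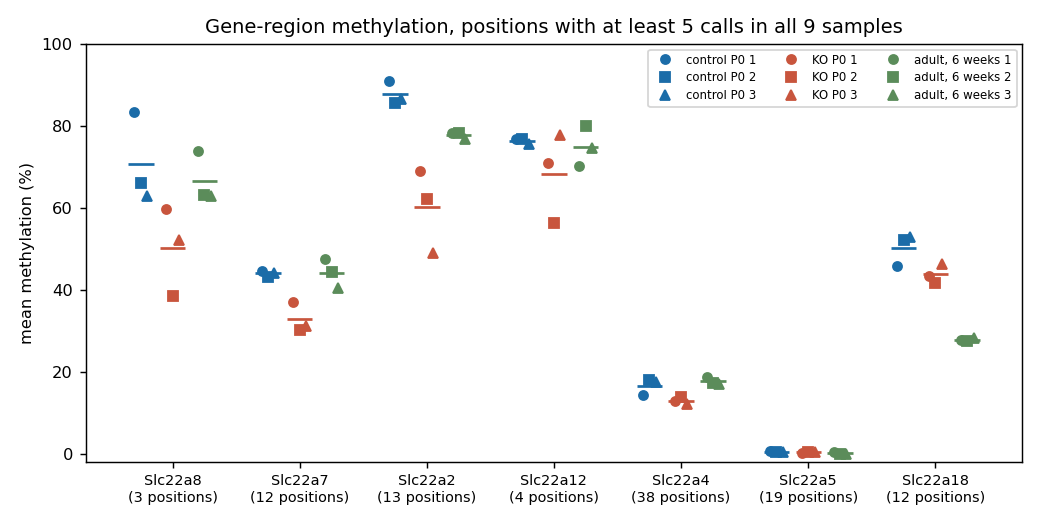
Mean methylation percent over the gene and 2 kb on both sides for the 7 Slc22 genes with at least 3 positions of at least 5 calls in all 9 libraries, with 1 point per library (blue, controls; red, KO; green, adults) and a line at each group mean (n = 3). KO means lie under control means in all 7, by 0.189 points in Slc22a5 and by 27.6 points in Slc22a2, and Slc22a18 is the gene whose adults lie far under both newborn groups.

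Near the start sites only Slc22a4 could be averaged, over 11 positions within 1 kb of its annotated start. Its methylation was 0.478% ± 0.428 in controls and 1.08% ± 0.992 in KO, and 0% in adults. It was not called (limma adjusted p 0.681), where 4.62% of all 7626 promoters were lower in KO and 0.157% higher. Adults against controls gave no call either (adjusted p 0.596), where 4.51% of promoters were lower and 1.47% higher.

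The third comparison set adult against newborn control kidneys. Of 82 positions with enough calls, 2 were lower in adults and 0 higher, where 1.83% of all positions were lower and 1.78% higher. One was 143495727 in Slc22a18, at 68.4%, 72.0% and 38.5% in controls and 22.6%, 32.7% and 33.3% in adults, a difference of -30.1 points (adjusted p 0.0209). The other was 12597572 in Slc22a2, at 100%, 96.6% and 100% against 68.0%, 72.2% and 56.2%, a difference of -33.4 points (adjusted p 0.0193). Adults were below every control at both. At the Slc22a6 position 8620877 the adult mean was 76.4%, and its difference from the control mean, -17.0 points, did not pass (adjusted p 0.0904). Pooled over the calls at all positions seen in every library, and with no test, adults stood below controls in each of 8 members, with differences of -17.9 points in Slc22a18, -14.5 in Slc22a6, -12.9 in Slc22a12, -9.81 in Slc22a2, -7.55 in Slc22a8, -5.23 in Slc22a7, -0.64 in Slc22a5 and -0.24 in Slc22a4. Adult and control libraries overlapped in Slc22a8, Slc22a7 and Slc22a4, and Slc22a6 rested on 2 positions. In Slc22a12 the KO difference pooled over the same 13 positions was -12.6 points. Pooled values weight positions by each library's calls, so coverage moves them, and their share over all genes was not counted. With positions weighted equally at a minimum of 10 calls, adults did not lie below controls throughout. Those adult differences were 2.12 points in Slc22a4, 1.04 in Slc22a7, -0.28 in Slc22a12 and -4.06 in Slc22a2.

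Of the 4 region means at 10 calls, 0 differed in adults by limma at an adjusted p under 0.05, and 0 had an unadjusted p under 0.05, where 5.05% of all regions were lower and 3.55% higher. At a minimum of 5 calls Slc22a18 was lower in adults, at 27.6%, 27.4% and 28.3% against 45.7%, 52.1% and 52.9% in controls. That difference of -22.5 points (SE 1.999, limma adjusted p 0.000730) was the only one called among 7 members, where 5.31% of all regions were lower in adults and 3.42% higher. Adults also had 1.35% to 1.40% of their calls on chromosome X, against 2.35% to 2.37% in controls, so age, genotype and sex of the animals cannot be told apart.

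Over the gene regions first averaged, before the call minimum was lowered, the 2 readouts matched in rank only for Slc22a12 and Slc22a4. Slc22a7 had the largest fall in RNA (log2 fold change -4.94) with a region difference of -11.95 points, and Slc22a2 had the largest region difference (-26.7 points) with a log2 fold change of -4.00. The control levels of these regions were 48.7% in Slc22a7 and 89.7% in Slc22a2. Slc22a12 came next in both readouts (log2 fold change -3.15, and -9.20 points, which did not pass). Slc22a4 came last in both, with a region difference of -4.62 points. At a minimum of 5 calls the orders differed further. Slc22a8 (-20.7 points) lay beyond Slc22a7 (-11.2) and Slc22a12 (-8.11), though its RNA fell less than theirs. Slc22a18 (-6.46 points) lay beyond Slc22a4 (-3.65), the reverse of their order in RNA. Slc22a4 had a log2 fold change of -1.94 in RNA, while the 11 positions around its start were near 0% in all groups. Slc22a6 rests on a single position within the gene, and Slc22a13 on none, so no methylation value stands beside their RNA at the start site. The methylation calls between KO and control were losses, the direction of most calls over the whole series (35.6% of positions lower, 0.146% higher). The RNA differences of members that passed were falls. No relation between the readouts was tested over so few genes.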

How the data were processed

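RNA counts and RRBS calls were used from 15 kidney samples, 3 per group. The submitters' processing notes name Trim Galore, Bismark, STAR 2.4.1d, HTSeq 0.6.1 and builds mm10 and GRCm38, with no role or order. Per the file headers and values, the authors deposited raw read counts per gene, with 5 closing lines of unassigned reads (22.9% to 35.8% of each library's reads), which were left out. For each cytosine position the authors deposited a methylation percent with the counts of calls behind it, methylated and unmethylated. The strand setting of the gene counting is not given in the sources used here, and RefSeq places Gm30927, Gm36394 and Gm36541 over Slc22a4, Slc22a6, Slc22a8 and Slc22a7, so reads of these cannot be told from the members'. Of 265662 RRBS positions inside RefSeq promoter windows, 99.6% fell on a CG of GRCm38.p6.

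Gene counts were tested with edgeR 4.0.16 (TMM, filterByExpr, quasi-likelihood F test, Benjamini-Hochberg at 0.05), and CPM are on TMM-scaled library sizes. Log2 levels used a prior count of 2. Standard errors were derived from the F statistic. Positions with at least 10 calls per library entered a quasi-binomial logistic model whose dispersion was moderated across positions and not under 1 (Python 3.11.15, numpy 2.4.6, scipy 1.17.1). Gene-region means were tested with limma 3.58.1 over all 9 RRBS libraries. In the fit with a replicate block the dispersion prior was taken over positions of 20% to 80% methylation, a choice made after seeing the data. Each fit was tested on simulated data with known changes. Alternatives were DESeq2 1.42.0, limma voom, other scalings, filters, coverage minimums, flanks, thresholds and dispersions, a replicate block, and each replicate left out.

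All 9 members were named. Of each list up to 3 genes of smallest p were named, and of each member the called position of largest difference. The members and lists were chosen with earlier results of these data known. Levels are not compared between genes, since exon lengths were not used. Some items chosen by these rules are not reported here.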

Additional observations from a re-analysis of the deposited data

How the results depend on the processing

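Over the alternatives run, the count of Slc22 genes lower in KO ran from 6 to 9 and 0 were higher. It was 9 with DESeq2 (1842 of all 22428 genes tested were lower) and 9 with no filter on low counts (1712 of 30538). It was 8 with limma voom (2595 of 18132), and 6 of 8 tested with at least 10 counts in every sample (1296 of 16160). Leaving out each replicate gave 6 to 8, from 6 without KO 1 (701 of 18649 genes lower) to 8 without control 3 (2561 of 18533). With the replicate block it stayed at 7 (1005 of 18132). Same-numbered control and KO samples did not deviate together (mean correlation -0.14 for RNA and -0.0032 for RRBS), so the numbers were not read as pairs. Slc22a5 also passed with voom (-0.60, adjusted p 0.0416), and Slc22a8 did not pass at a threshold of 0.01.

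Positions lower in KO were 5 of 8 tested with at least 20 calls, a share above the 51.7% of all positions tested, on few positions. At an adjusted p under 0.01 they were 6 of 45 (20.7% of all positions). With no overdispersion they were 20 of 45 (50.3%) and with the replicate block 8 of 45 (26.4%). The shares of the 45 were under those of all positions in these settings. Leaving out each replicate gave 7 to 11, of 45 tested or, without KO 3, 7 of 70. Adult positions fell to 0 with at least 20 calls, 0 at an adjusted p under 0.01 and 0 with the replicate block, rose to 8 with no overdispersion, and were 0 to 1 with each replicate left out. For these adult counts, and for KO with a replicate left out, shares over all positions are not given here. They are therefore not read as results about the members. Lower KO regions were 5 of 7 with at least 5 calls (71.2% of all regions) and 1 of 1 with at least 20 calls. They were 2 with the replicate block (Slc22a4 limma adjusted p 0.0555) and 2 to 3 with each replicate left out. Beyond the fit at 5 calls, shares over all regions are not given here for these settings. Weighting by calls lost Slc22a4 (adjusted p 0.302). Adult regions were 1 of 7 with at least 5 calls (5.31% of all regions were lower) and 1 weighted by calls. That one was Slc22a7, whose adult difference turned from 1.04 to -6.34 points (adjusted p 0.0231), and ran from -0.52 to 2.79 with each replicate left out. The adult difference of Slc22a12 turned from -0.28 to 2.68 points weighted by calls, and ran from -1.30 to 1.32 with each replicate left out. The cause was not tested. RRBS depth limited most starts: KO 3 had a median of 4 calls per position.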
